A study of Mus musculus with 12 samples.

Results

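The knockdown of Rbmx was examined in Neuro-2a, an adherent line from a mouse neuroblastoma that carries many features of sympathetic neuron precursors. The members are the 4 libraries labelled miRbmx and the 4 labelled miScramble, 8 of the 12 libraries of the series, and every gene counted in them. The other 4, labelled miRbmxl1, are a knockdown of the related gene Rbmxl1. They entered the fit as a group of their own and helped to estimate the spread and the replicate effects. Of 55401 Ensembl gene identifiers, 17569 had enough reads to be tested. In both groups the cells of a well received 1 µg of the plasmid pCAGGs-linkB-IRES-GFP, which makes green fluorescent protein (GFP), together with 3 µg of pCAG-miR30 plasmid by Lipofectamine. The pCAG-miR30 plasmid encodes an artificial microRNA set in the miR30 backbone. Scramble cells received a non-targeting version, and Rbmx knockdown cells received a pool of 3 plasmids aimed at Rbmx. GFP-positive cells were sorted 48 hours later, so both groups share the transfection, the GFP plasmid and the sort. Total RNA was depleted of ribosomal RNA before the libraries were made. The model is a single cell line after transient knockdown. The labels number the biological replicates 1 to 4 in each group without saying what a number stands for, so the p-values describe the spread between these samples.

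RBMX, also called hnRNP G, is an RNA-binding protein encoded on the X chromosome. It coats nascent transcripts, takes part in splice site choice together with Tra2 and other SR-family proteins, and is known for keeping very long internal exons intact in genes of genome maintenance. Rbmxl1 is an autosomal copy of Rbmx that arose by retroposition and has kept an open reading frame.

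Rbmx RNA was reduced in every knockdown library. In CPM (a library's counts in genes scaled to a fixed total, after TMM scaling of library sizes), scramble replicates 1 to 4 held 57.6, 67.8, 72.2 and 73.3 CPM of Rbmx (ENSMUSG00000031134; chromosome X, 57383530 to 57393036, minus strand, GRCm38). The knockdown replicates 1 to 4 held 22.2, 24.7, 31.0 and 32.6 CPM. The groups did not overlap, and in each pair of libraries with the same number the knockdown library was the lower. These are bulk libraries, so fewer cells with the transcript and less of it per cell cannot be told apart. The log2 fold change was −1.30 ± 0.08 (SE, n = 4 pairs; edgeR quasi-likelihood test with the replicate number as a block, Benjamini-Hochberg adjusted p 2.12e-07). Rbmxl1 (chromosome 8, 78505269 to 78508898, minus strand) was at 31.3, 36.7, 34.2 and 34.2 CPM in scramble and at 34.2, 37.6, 38.3 and 34.4 CPM in the knockdown. Its groups overlapped, and its log2 fold change of 0.08 ± 0.09 did not pass the test (adjusted p 0.601). Reads that aligned to several places are not in these counts, so reads shared by both copies would be missing from each.

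With the replicate number as a block, 1467 of 17569 genes (8.35%) passed an adjusted p of 0.05, 730 higher (4.16%) and 737 lower (4.19%) in the knockdown. These genes are referred to as called, and all log2 fold changes compare the knockdown with scramble. Most changes were small. A change of more than 1.5-fold was seen in 70 genes called higher and 147 called lower. Of the called genes, 1455 moved in the same direction in 4 of 4 same-number pairs, which selection by this test favours. The median over all genes was −0.00 on the log2 scale. Calls grew more frequent with level, from 0.888% of genes in the lowest quartile of mean CPM to 14.5% in the highest. In that highest quartile 7.58% were called higher and 6.94% lower. The shares over all genes are thus low yardsticks for lists of abundant genes. The calls rest on a block for the replicates: without it, edgeR called Rbmx alone (0.00569%), 1919 genes had an unadjusted p under 0.05, and the next lowest adjusted p was 0.0875. Single libraries also carried weight, since 281 genes were called without scramble replicate 3 and 435 without knockdown replicate 3. Without knockdown replicate 2 or scramble replicate 1 the number was 507 or 515. It was 679 without scramble replicate 4 and 841 without knockdown replicate 1.

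Replicates 1 and 2 stood apart from replicates 3 and 4 in both groups, so values within each set are given below. With the set in place of the number as the block, a fit added after seeing the data, 1309 genes were called, 1252 of them among the 1467. It left 3 calls among long non-coding RNAs, 3 among snoRNA hosts and 4 among histone genes. Of 1466 called genes measured in both sets, 1466 had the same sign in both. They were called from all 4 pairs together, so agreement of sign between the sets is largely built in. A fit of replicates 1 and 2 alone called 4 genes (0.023%), and a fit of replicates 3 and 4 alone called 1818 (10.1%). A test of the difference between the sets called 0 genes (edgeR interaction term; 1944 genes had an unadjusted p under 0.05), and 315 when the fit held only the 8 libraries. Depth was even, at 43.8 to 52.2 M reads in genes. Of 15 neuroblastoma and sympathetic neuron markers, 14 were present at 1 CPM or more, and the filament gene Nefm was under 0.1 CPM. Their summed level was 2220 to 2879 CPM in scramble and 2409 to 2975 CPM in the knockdown. Summed markers of leukocytes stayed at or under 1.23 CPM, and those of epithelium at or under 0.438 CPM, in all 8 libraries. Those of fibroblasts, glia and endothelium were at or under 43.9, 20.0 and 8.74 CPM, with 0 markers called in any of these 5 sets.

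**Figure D1:**
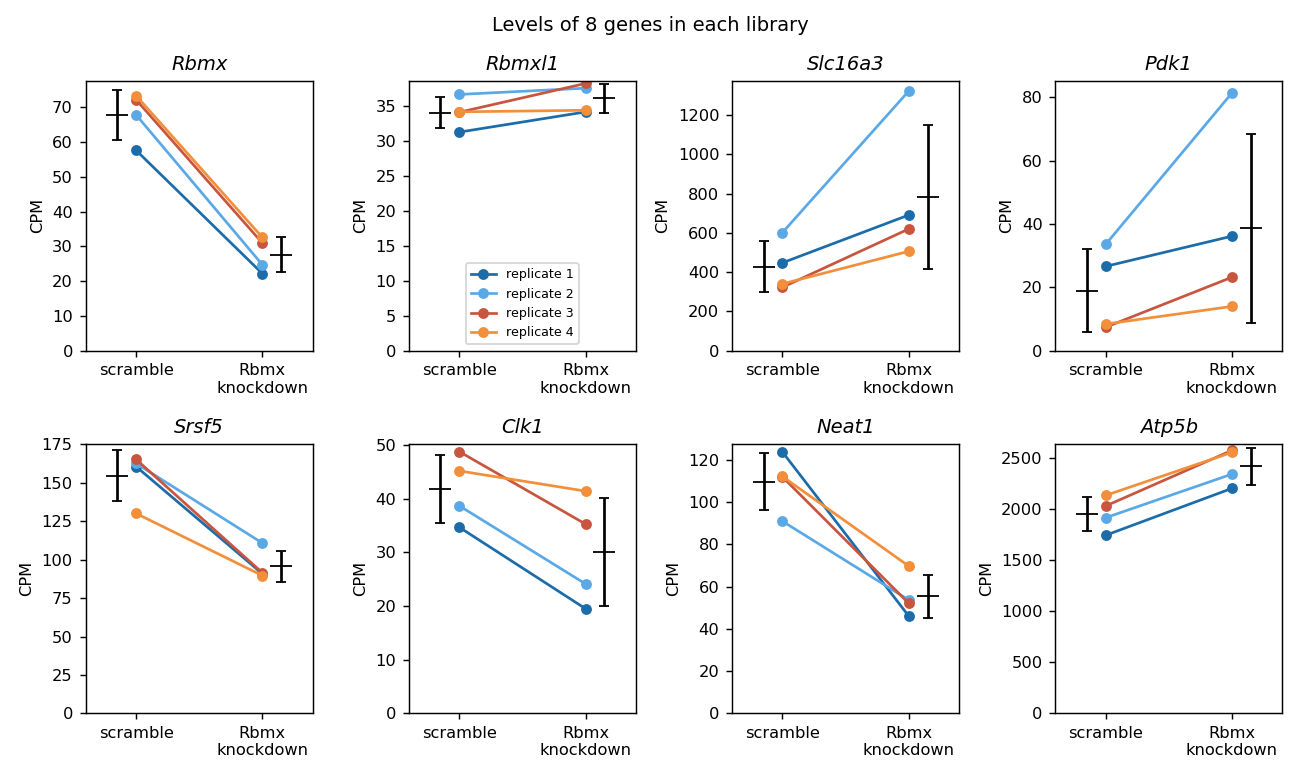
CPM of 8 genes in each library, with scramble on the left and Rbmx knockdown on the right of each panel. Lines join libraries with the same replicate number, and black bars give the mean ± SD of 4 libraries. Rbmx fell from 67.7 ± 7.15 to 27.6 ± 4.96 CPM while Rbmxl1 stayed near 34.1 ± 2.21 and 36.1 ± 2.11 CPM, and Slc16a3 and Pdk1 were higher in each pair although the groups overlap.

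Genes of glycolysis were the gene list with the largest median rise among the 42 examined. The lists were chosen with earlier results of these data known, so this rank is not independent of the data. Of 17 members tested, 14 were called higher and 0 lower, beside 4.16% of all genes called higher. The median log2 fold change was 0.57, against −0.00 for all genes. It was 0.63 in replicates 1 and 2 against 0.46 in replicates 3 and 4. The calls covered almost each step from glucose phosphorylation to lactate export: Hk1, Hk2, Gpi1, Pfkl, Aldoa, Aldoc, Tpi1, Gapdh, Pgk1, Pgam1, Eno1, Pkm, Ldha and Slc16a3. Pfkm, Pfkp and Eno2 were not called, at 0.20, 0.18 and 0.28 on the log2 scale. The number called was 5 without scramble replicate 3 and 8 without knockdown replicate 2, and 11 to 14 without any other single library.

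Slc16a3 encodes MCT4, the transporter that exports lactate. It was at 448, 602, 323 and 341 CPM in scramble and at 691, 1323, 621 and 506 CPM in the knockdown, with a log2 fold change of 0.83 ± 0.15 (adjusted p 0.00803, edgeR). Each knockdown library was above its own scramble partner, and knockdown replicate 2 was far above the rest. Tpi1, the triose phosphate isomerase, was at 437, 568, 257 and 294 CPM in scramble and at 635, 1111, 527 and 439 CPM in the knockdown (0.78 ± 0.14, adjusted p 0.00756). Pgk1, the phosphoglycerate kinase, was at 112, 159, 76.9 and 84.3 CPM in scramble and at 171, 289, 138 and 126 CPM in the knockdown (0.73 ± 0.13, adjusted p 0.00804). For all 3 genes the scramble libraries of replicates 1 and 2 were higher than those of replicates 3 and 4, so the groups overlap although the knockdown was the higher in 4 of 4 pairs. The neural aldolase Aldoc changed by 0.76 ± 0.15, the enolase Eno1 by 0.60 ± 0.12 and the aldolase Aldoa by 0.57 ± 0.11. Ldha, the lactate dehydrogenase that makes lactate, was named after its values were seen, and changed by 0.61 ± 0.14 (adjusted p 0.0154). Summed over the 17 members, scramble libraries held 9816, 11696, 7090 and 7790 CPM and knockdown libraries 13101, 19412, 10611 and 9774 CPM. The Tpi1 exons overlap Spsb2 on the other strand and those of Aldoa overlap Fam57b, and how the counting treated strand is not given in the sources used here.

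Targets of the hypoxia-inducible factors outside glycolysis were higher as well. These factors are switched on when oxygen-dependent prolyl hydroxylases slow down, and they raise glucose uptake, lactate production and mitophagy. The test called 22 of 34 such genes higher and 1 lower (all genes: 4.16% and 4.19%), and 28 of the 34 had a positive fitted change. The median was 0.41 over all pairs, 0.54 in replicates 1 and 2 against 0.31 in replicates 3 and 4. Part of this list was known to move when it was written. The number higher was 9 without scramble replicate 3 and 13 without knockdown replicate 2, and 16 to 23 without any other single library.

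Pdk1 encodes the kinase that shuts pyruvate out of the mitochondrion. It was at 26.6, 33.5, 7.41 and 8.40 CPM in scramble and at 36.1, 81.3, 23.2 and 13.98 CPM in the knockdown (1.01 ± 0.20, adjusted p 0.00951). Scramble replicates 1 and 2 were above knockdown replicates 3 and 4, although the knockdown was the higher in each pair. Bnip3, a receptor for the removal of mitochondria, was at 72.8, 94.6, 18.9 and 22.0 CPM in scramble and at 103, 204, 60.9 and 32.6 CPM in the knockdown (0.95 ± 0.20, adjusted p 0.0120). Bnip3 showed the same split by replicate number. Ankrd37, an ankyrin repeat protein, was at 2.35, 2.12, 1.37 and 1.64 CPM in scramble and at 4.86, 3.37, 2.81 and 3.86 CPM in the knockdown (1.01 ± 0.19, adjusted p 0.00841), without overlap of the groups. Its exons lie across those of Lrp2bp and Ufsp2 on the other strand. Selenbp1, a selenium-binding methanethiol oxidase, had the largest change of the list, 1.23 ± 0.20 (adjusted p 0.00522). Among the others, the peptide hormone precursor Adm changed by 0.89 ± 0.17, the growth-arrest gene Ndrg1 by 0.61 ± 0.11, the cytokine Mif by 0.42 ± 0.08 and the collagen lysyl hydroxylase Plod1 by 0.29 ± 0.05. Slc2a1, the glucose transporter GLUT1, was named after its values were seen and changed by 0.67 ± 0.14 (adjusted p 0.0108).

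The hypoxia list did not move as a whole. Stc2, a secreted glycoprotein, was called lower at −0.29 ± 0.06 (adjusted p 0.0101). Vegfa, the angiogenic growth factor and a textbook target of the same factors, was named after its values were seen. It was at 289, 278, 288 and 263 CPM in scramble and at 225, 228, 253 and 261 CPM in the knockdown. The groups did not overlap, each pair was lower in the knockdown, and the log2 fold change of −0.21 ± 0.07 did not pass the test (adjusted p 0.0903). Pfkfb3, Kdm3a, Bhlhe40 and Pfkfb4 were not called, at −0.04, −0.05, −0.08 and −0.16.

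**Figure D2:**
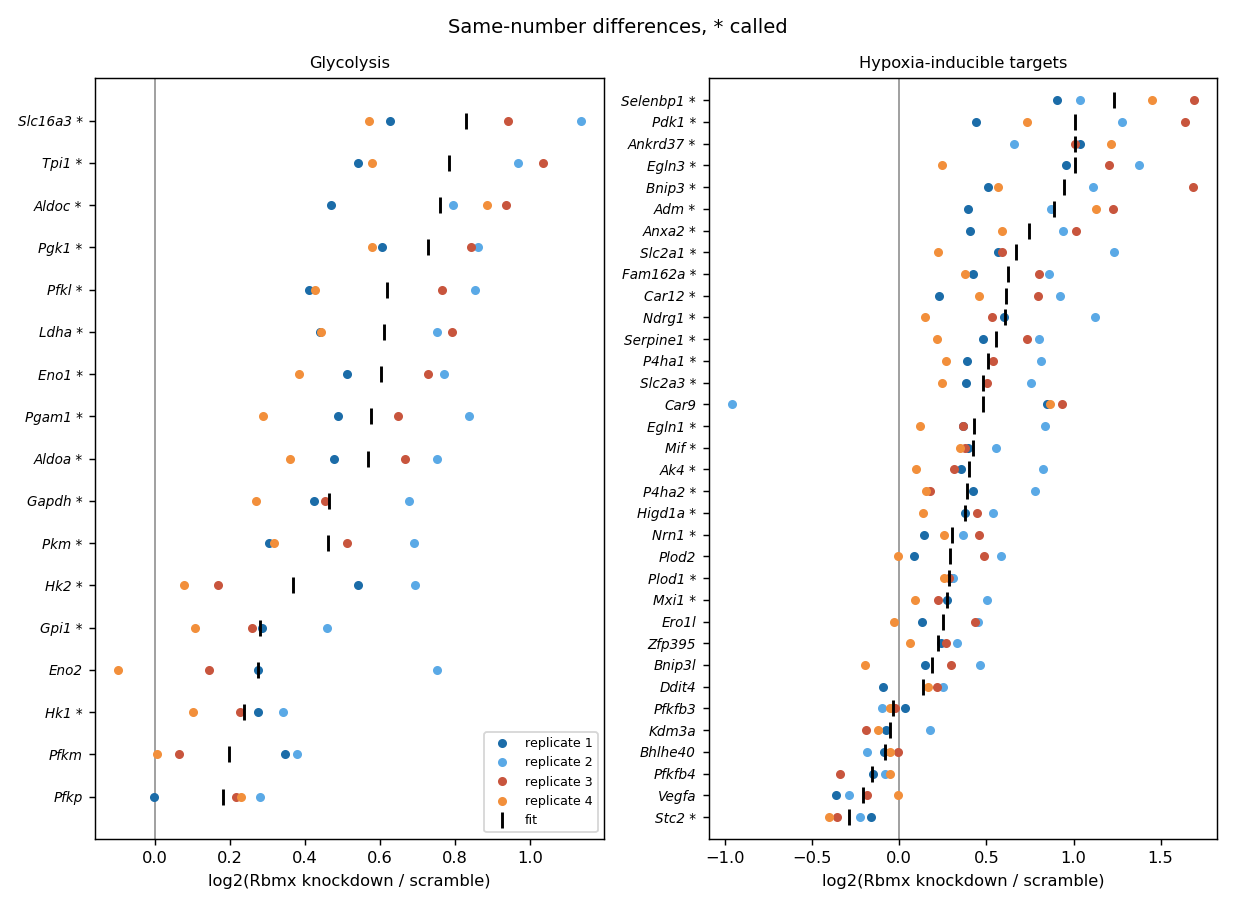
Log2 ratio of knockdown to scramble for each same-number pair, for the 17 glycolysis genes and the 34 hypoxia-inducible targets tested. Each point is 1 pair, the black tick is the fitted log2 fold change, and an asterisk marks a called gene. All 17 glycolysis genes have a positive fitted change, and the pair of replicate 2 lies at the high end for many genes.

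Hypoxia-inducible factors bind the core letters ACGTG. Promoter windows that hold these letters are shown for 3 hand-picked members with large changes, not the largest. They come from RefSeq on GRCm38.p6, as the 250 bases before an annotated start on the gene's own strand. Capitals mark ACGTG on either strand (ACGTG or CACGT, which overlap in the Bnip3 window). Bnip3 is chr7:138909507-138909756 (minus strand), Pgk1 is chrX:106186850-106187099 (plus strand) and Slc16a3 is chr11:120948817-120949066 (plus strand). The Slc16a3 window lies past base 120948480, where the gene begins in the gene annotation, so it precedes a later start.
Bnip3: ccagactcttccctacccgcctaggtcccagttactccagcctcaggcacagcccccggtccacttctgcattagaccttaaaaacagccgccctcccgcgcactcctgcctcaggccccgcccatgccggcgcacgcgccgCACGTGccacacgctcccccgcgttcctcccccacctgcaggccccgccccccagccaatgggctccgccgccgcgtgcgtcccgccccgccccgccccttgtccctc
Pgk1: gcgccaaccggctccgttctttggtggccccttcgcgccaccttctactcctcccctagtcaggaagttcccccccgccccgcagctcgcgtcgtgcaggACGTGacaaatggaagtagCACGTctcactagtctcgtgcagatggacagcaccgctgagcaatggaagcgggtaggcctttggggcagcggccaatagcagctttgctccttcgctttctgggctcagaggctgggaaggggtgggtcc
Slc16a3: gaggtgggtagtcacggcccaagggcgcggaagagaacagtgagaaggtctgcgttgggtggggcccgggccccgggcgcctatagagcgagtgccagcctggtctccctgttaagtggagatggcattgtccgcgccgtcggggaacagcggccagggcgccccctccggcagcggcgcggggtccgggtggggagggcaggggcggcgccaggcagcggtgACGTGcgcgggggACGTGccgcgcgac
Only windows with the motif were taken for display, so its presence in them is given by the choice. Each holds it at 2 positions. Of all 32851 windows of this length, 16.6% hold it at least once. Of 10656 tested genes with a window, 24.7% have it in at least 1 of their windows. Of the 17 tested glycolysis genes 47.1% have it, and of the 25 tested hypoxia targets with a window 64.0%. Among members called in either direction the shares are 50% of 14 and 63.2% of 19. Of the 22 tested splicing factors of the SR list with a window, 27.3% have it, and of the 11 called, 9.09%. The hypoxia list was assembled from genes known as targets, so its share describes the list and no binding was measured.

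Nuclear genes of oxidative phosphorylation were higher in part, by small amounts. Of 46 members tested, 17 were called higher (all genes: 4.16%, quartile of highest mean CPM: 7.58%) and 0 lower. The median was 0.18, with 0.20 within either replicate set. In 35 of the 46 genes the knockdown was the higher in 4 of 4 pairs. Calls were found in each complex: Ndufa4, Ndufa8, Ndufa10 and Ndufb8, the succinate dehydrogenase subunits Sdhb and Sdhc, the cytochrome bc1 subunits Uqcrc1 and Cyc1, several Cox subunits, and Atp5b, Atp5c1, Atp5d and Atp5o of the ATP synthase. Atp5b, the catalytic beta subunit, was at 1741, 1913, 2027 and 2131 CPM in scramble and at 2199, 2338, 2571 and 2551 CPM in the knockdown (0.31 ± 0.07, adjusted p 0.0150). Sdhc was at 78.3, 90.2, 90.6 and 88.9 CPM in scramble and at 101, 107, 114 and 113 CPM in the knockdown (0.32 ± 0.07, adjusted p 0.0149). For both genes the lowest knockdown library was above the highest scramble library. Atp5d changed by 0.28 ± 0.06 and Ndufb8 by 0.30 ± 0.07. The number called was 0 without scramble replicate 3, 1 without scramble replicate 1 and 3 without scramble replicate 4. It was 7, 5, 5 and 9 without knockdown replicates 1, 2, 3 and 4.

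Transcripts of the mitochondrial genome did not follow. Of 15 members tested 0 were called higher, and the median was −0.07, with −0.24 in replicates 1 and 2 against 0.20 in replicates 3 and 4. The exception was mt-Nd6, a complex I subunit and the only protein encoded on the light strand. It was at 154, 166, 150 and 185 CPM in scramble and at 90.4, 119, 113 and 141 CPM in the knockdown (−0.51 ± 0.08, adjusted p 0.00522), and its groups did not overlap. After this value was seen, the mitochondrial genes were split by strand. All 6 minus-strand genes tested had negative fitted changes, from −0.72 to −0.33 with a median of −0.49, and 5 of them were lower in 4 of 4 pairs. mt-Nd6 and the alanine transfer RNA mt-Ta (−0.61 ± 0.17, adjusted p 0.0331) were called, and mt-Tq, mt-Tp, mt-Te and mt-Ty were not. The 18 plus-strand genes had a median of −0.07, from −0.33 to 0.32, with 0 called. The medians of the minus-strand genes in pairs 1 to 4 were −0.55, −0.34, −0.38 and −0.41, and those of the plus-strand genes −0.21, −0.17, −0.01 and 0.27. Transfer RNAs are poorly captured by such libraries, and mt-Nd6 overlaps the end of mt-Nd5 on the other strand.

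SR proteins and their regulators were the main group of splicing genes to fall. SR proteins carry arginine and serine repeats, bind exons and recruit the spliceosome, and CLK kinases phosphorylate them. Many of these genes tune their own level through poison exons or retained introns. Of 25 members tested, 12 were called lower and 1 higher, beside 4.19% of all genes called lower, and 19 were lower in 4 of 4 pairs. The median was −0.23, with −0.33 in replicates 1 and 2 against −0.19 in replicates 3 and 4, and its values in pairs 1 to 4 were −0.39, −0.29, −0.30 and −0.10. The number lower was 3 without scramble replicate 3, 4 without scramble replicate 1 and 5 without knockdown replicate 2 or 3.

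Srsf5 was at 161, 163, 165 and 130 CPM in scramble and at 90.9, 111, 91.5 and 89.7 CPM in the knockdown (−0.69 ± 0.14, adjusted p 0.00952). Srsf6 was at 238, 234, 302 and 240 CPM in scramble and at 157, 165, 197 and 184 CPM in the knockdown (−0.53 ± 0.09, adjusted p 0.00675). In both genes the highest knockdown library was below the lowest scramble library. Clk1, which encodes a CLK kinase, was at 34.7, 38.7, 48.8 and 45.2 CPM in scramble and at 19.5, 24.1, 35.3 and 41.4 CPM in the knockdown (−0.52 ± 0.10, adjusted p 0.0101). The groups of Clk1 overlap, and replicate 4 shows the smallest difference. The SR-related genes Pnisr, Luc7l3 and Srek1 changed by −0.53 ± 0.12, −0.52 ± 0.11 and −0.47 ± 0.10. Srsf2, Srsf3, Srsf7, Srsf11, Clk4 and Rsrp1 were also called lower. Srsf9 was the member called higher, at 0.26.

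Other splicing genes mostly did not pass, and the core spliceosome and hnRNP counts are near or under the shares over all genes (4.16% higher, 4.19% lower). Of 37 core spliceosome genes, 2 were called higher (Snrpd2 and Sf3b5, at 0.27 and 0.26) and 2 lower (Snrnp70 and Sf3b1, at −0.67 and −0.20), with a median of 0.02. Snrnp70, the 70K protein of the U1 particle, was at 197, 159, 321 and 214 CPM in scramble and at 89.1, 91.0, 204 and 202 CPM in the knockdown (adjusted p 0.0308), with overlap of the groups and a small difference in replicate 4. Of 32 hnRNP and related regulators, Hnrnpdl alone was called: it was at 222, 215, 294 and 255 CPM in scramble and at 138, 149, 205 and 202 CPM in the knockdown (−0.52 ± 0.09, adjusted p 0.00666), without overlap. Of 12 genes for RBMX and proteins that work with it, Rbmx, the scaffold attachment factor Safb2 (−0.47 ± 0.12, adjusted p 0.0289) and Srsf3 were called lower. Nonsense-mediated decay, which removes transcripts with premature stops, had 2 of 15 genes called lower, Smg6 and Upf3b. Smg6, the endonuclease of that pathway, was at 105, 88.0, 87.5 and 81.2 CPM in scramble and at 72.1, 69.4, 56.6 and 56.7 CPM in the knockdown (−0.51 ± 0.07, adjusted p 0.00241). Its groups did not overlap. Writers, erasers and readers of m6A, the RNA mark whose structural switch exposes RBMX binding sites, had 0 of 17 called, and the most abundant member, Alkbh5, was at 0.11 ± 0.07. Safb2 was lower in 3 of 4 pairs. Without scramble replicate 1 or 3 or knockdown replicate 1, 2 or 3, the list of RBMX and its partners had 1 call, and without the same libraries the core spliceosome list had 0. In microRNA processing, 2 of 14 were called lower: Dgcr8, the partner of Drosha, at −0.36 ± 0.07 and the Argonaute partner Tnrc6c at −0.31 ± 0.06.

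**Figure D3:**
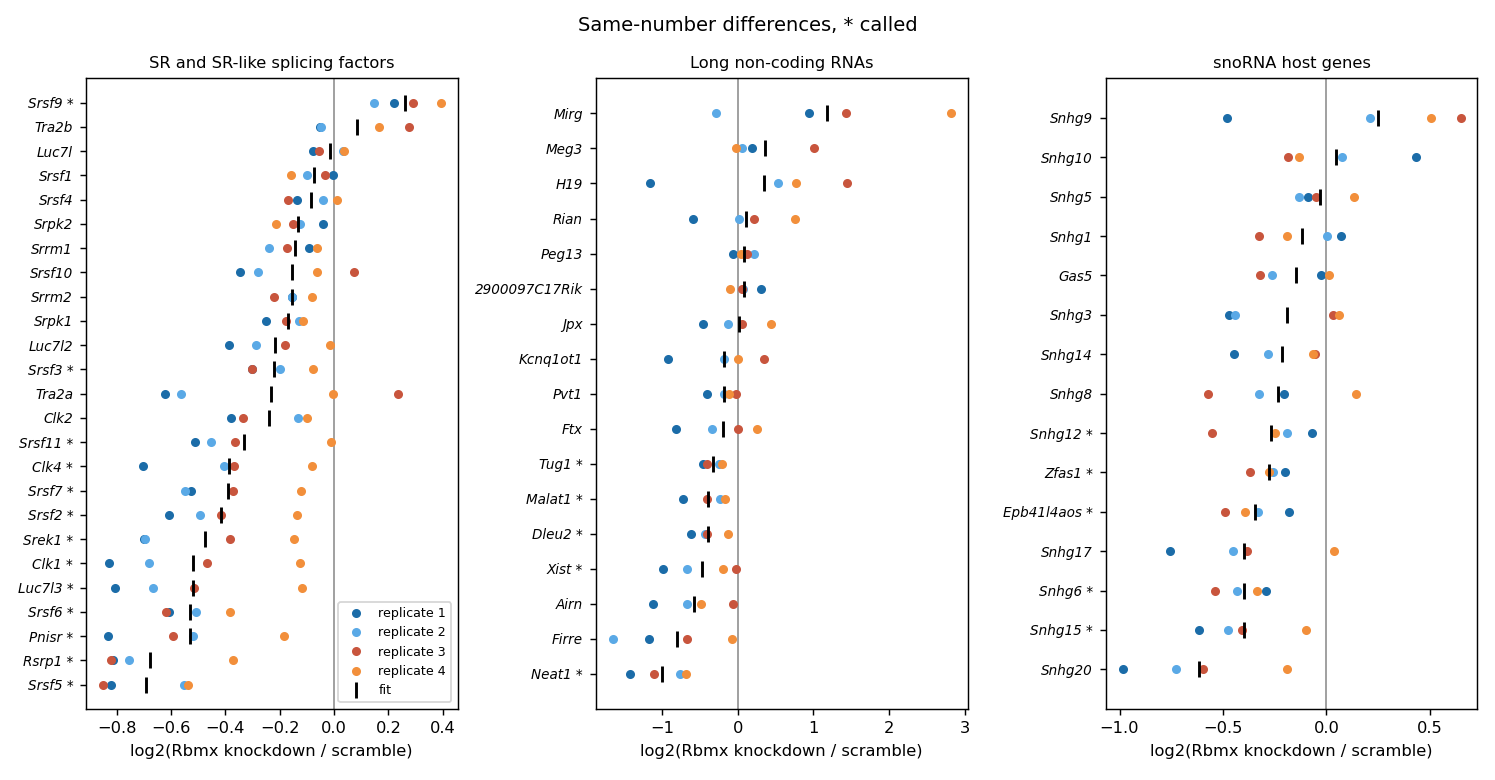
Log2 ratio of knockdown to scramble for each same-number pair, for SR and SR-like splicing factors, long non-coding RNAs and snoRNA host genes. Each point is 1 pair, the black tick is the fitted log2 fold change, and an asterisk marks a called gene. Most SR genes lie left of 0, with the pair of replicate 4 nearest to 0 for many, and Neat1 is the lowest of the long non-coding RNAs.

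Genes with very long internal exons, the class for which RBMX is best known, were lower in part, by small amounts. A list of 39 such genes had 8 called lower (all genes: 4.19%) and 0 higher, with a median of −0.12 (−0.14 in replicates 1 and 2 against −0.08 in replicates 3 and 4), and 18 were lower in 4 of 4 pairs. Of the 39, 32 have an internal exon of at least 1000 bases in the annotation used here. Rev3l, the catalytic subunit of DNA polymerase zeta, has an internal exon of 4153 bases. It was at 219, 221, 226 and 218 CPM in scramble and at 163, 155, 196 and 184 CPM in the knockdown (−0.34 ± 0.07, adjusted p 0.00921), without overlap. Ankrd12, a chromatin cofactor, has an internal exon of 4658 bases and was at 90.2, 93.2, 77.2 and 78.2 CPM in scramble and at 66.7, 65.8, 63.3 and 61.6 CPM in the knockdown (−0.39 ± 0.07, adjusted p 0.00816). Its groups did not overlap either. Setbp1, Rbbp6, Atrx, Asxl2, Brca1 and Bod1l were the others called, from −0.36 to −0.21, although the longest internal exon of Asxl2 there is 712 bases. With the GC trend of each library removed, the list had 6 called lower and 1 higher, and Rbbp6 was at −0.16 (adjusted p 0.333, edgeR). The helicase gene Atrx changed by −0.27 ± 0.06 and the repair gene Brca1 by −0.26 ± 0.07, whereas Fancm and Rif1 were not called, at −0.11 and −0.05. Atm and Blm, at −0.09 and −0.04 and not called, have no internal exon of 1000 bases. The number called was 3 without scramble replicate 3, and 5 without scramble replicate 1 or knockdown replicate 2 or 3. Without knockdown replicate 1 it was 5 lower and 1 higher. These are counts of all reads of a gene, so use of a single exon cannot be read from them.

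Across all protein-coding genes the direction followed transcript length. In the shortest quartile, with a longest transcript of up to 2189 bases, 8.77% of 3183 genes were called higher and 1.89% lower. In the longest quartile, of 4780 bases or more, 2.33% of 3180 genes were called higher and 9.87% lower. The median log2 fold change went from 0.07 in the shortest quartile to −0.04 in the longest, so the shift was small and showed mainly in the calls. It was 0.08 and −0.03 in replicates 1 and 2, against 0.07 and −0.05 in replicates 3 and 4. Genes with an internal exon of at least 1000 bases in any annotated transcript, retained-intron models included, had 10.5% of 1584 called lower, against 4.24% of the other 11136. Within the longest quartile the shares lower were 13.5% with such an exon and 8.57% without, and within the third quartile 9.05% and 4.33%. In the second quartile they were 3.83% and 3.23%, and in the shortest 0% of 27 genes and 1.9%. Transcript GC content moved with the calls as well. From the lowest to the highest quartile of GC, over all genes, 1.21%, 2.96%, 4.99% and 7.48% were called higher, and 5.54%, 4.63%, 3.72% and 2.92% lower. The median by GC quartile went from −0.12 to 0.08 in replicates 1 and 2, but went from 0.02 to 0.00 in replicates 3 and 4. With the GC trend of each library removed, 300 long and 80 short coding genes were called lower, and 76 and 214 higher. Of 151 called genes named in the text, 19 did not pass then: Bod1l, Creld2, Cyc1, Dleu2, Fzd3, Gpi1, Hk1, Insm1, Ndufa10, Plk1, Rbbp6, Sdhb, Sf3b1, Slbp, Snap25, Srsf3, Tug1, Uqcrc1 and mt-Ta.

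**Figure D4:**
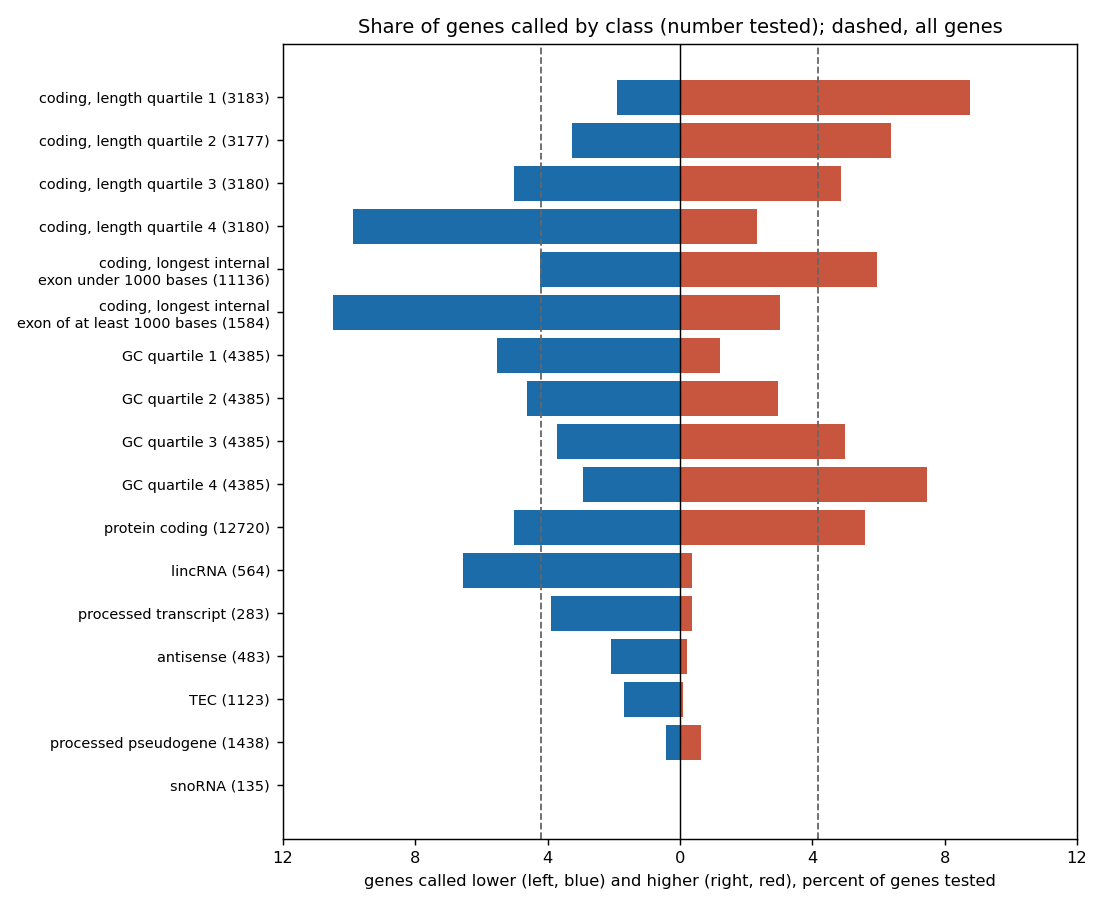
Share of genes called higher (right) and lower (left) in classes of transcript length, longest internal exon, transcript GC content and biotype, in percent of the genes tested, which stand in parentheses. Dashed lines mark 4.16% higher and 4.19% lower over all genes. The share lower grows and the share higher shrinks from the shortest to the longest quartile of coding genes.

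Among other biotypes, long intergenic non-coding RNAs were called lower in 6.56% and higher in 0.355% of 564 genes. Their median was −0.14, with −0.27 in replicates 1 and 2 against 0.01 in replicates 3 and 4. Genes annotated inside introns of other genes on the same strand, which count unspliced RNA of the host as well, moved mostly in pair 1. Their medians over 178 genes in pairs 1 to 4 were −0.87, −0.25, 0.07 and −0.02. The part of this difference in the other non-coding results was not tested. Small nucleolar RNAs (135 genes) and small nuclear RNAs (88) had 0 called by edgeR, although such short RNAs are poorly captured here.

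Of 17 well-known long non-coding RNAs, 5 were called lower (all genes: 4.19%) and 0 higher, with a median of −0.18 (−0.35 in replicates 1 and 2 against −0.03 in replicates 3 and 4). Neat1, the scaffold of nuclear paraspeckles, fell most. It was at 124, 90.9, 112 and 112 CPM in scramble and at 46.1, 53.7, 52.1 and 69.7 CPM in the knockdown (−0.997 ± 0.15, adjusted p 0.00428), so the groups did not overlap. Malat1, which gathers at nuclear speckles, was at 2954, 2855, 2292 and 2657 CPM in scramble and at 1782, 2417, 1721 and 2363 CPM in the knockdown (−0.39 ± 0.08, adjusted p 0.0149), with overlap. Xist, the RNA that coats the inactive X chromosome, was at 1450, 1566, 1303 and 1183 CPM in scramble and at 731, 985, 1287 and 1029 CPM in the knockdown (−0.48 ± 0.13, adjusted p 0.0335). The Xist difference lay mainly in replicates 1 and 2. Tug1 changed by −0.33 ± 0.07 and Dleu2, the host of a microRNA cluster, by −0.39 ± 0.08. With the GC trend removed they were at −0.24 (adjusted p 0.0519, edgeR) and −0.25 (0.0728). Of 15 non-coding hosts of small nucleolar RNAs, 5 were called lower and 0 higher, with a median of −0.23 (−0.25 and −0.21 in the replicate sets). Snhg6 changed by −0.40 ± 0.07, Snhg15 by −0.40 ± 0.11, Epb41l4aos by −0.35 ± 0.07, Zfas1 by −0.28 ± 0.06 and Snhg12 by −0.27 ± 0.07. The calls among long non-coding RNAs numbered 2 without scramble replicate 1 or knockdown replicate 1, and 3 without scramble replicate 3 or 4 or knockdown replicate 2. Among snoRNA hosts they numbered 1 without scramble replicate 3 or knockdown replicate 3, 2 without knockdown replicate 1 or 2, and 3 without scramble replicate 4. Several of these genes overlap small RNA genes, and Xist overlaps Tsix on the other strand.

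Genome maintenance and cell cycle genes had calls in both directions, beside 4.16% of all genes called higher and 4.19% lower. RBMX is known to support the DNA damage response and sister chromatid cohesion, so these lists were examined in full. Of 38 genes of homologous recombination, the Fanconi pathway and checkpoints, 3 were called lower: the checkpoint scaffold Topbp1 at −0.30 ± 0.06, the strand-exchange motor Rad54l at −0.30 ± 0.07, and Brca1. The list had 0 calls without scramble replicate 3 and 1 without scramble replicate 4 or knockdown replicate 2, 3 or 4. Topbp1 was at 207, 204, 260 and 248 CPM in scramble and at 179, 171, 199 and 196 CPM in the knockdown, without overlap. Of 18 cohesin genes, Pttg1, the securin, was called higher at 0.52 ± 0.16 and the loader subunit Mau2 lower at −0.26 ± 0.07. Of 42 replication genes, Orc6 and Slbp were called lower, at −0.25 ± 0.07 and −0.19 ± 0.06. Slbp binds the stem-loop of histone messenger RNAs. Of 43 mitotic genes, 2 were called higher, Plk1 at 0.39 ± 0.11 and Ccnb2 at 0.30 ± 0.09, and the list's median was −0.02 in replicates 1 and 2 against 0.23 in replicates 3 and 4. Of 24 targets of p53, 2 were higher and 3 lower, with a median of −0.04. Ddb2, a DNA damage sensor, was lower at −0.97 ± 0.22 (adjusted p 0.0154, edgeR). Its mean level was low, 2.91 CPM in scramble and 1.47 CPM in the knockdown. Ccng1 was higher at 0.34 ± 0.09. Without scramble replicate 3 or knockdown replicate 2 or 3 the cohesin and mitotic lists had 0 calls, and the p53 list 0 higher and 1 lower. The mitotic list also had 0 without scramble replicate 1 or 4 or knockdown replicate 4, and the cohesin list without scramble replicate 4 or knockdown replicate 1. The replication list had 0 calls when any single library was left out, apart from 1 without knockdown replicate 4.

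Histone genes transcribed in S phase were higher in part. The test called 8 of 31 higher (all genes: 4.16%) and 0 lower, and 29 had a positive fitted change. The median was 0.32 over all pairs, 0.19 in replicates 1 and 2 against 0.43 in replicates 3 and 4. The linker histone gene Hist1h1e was at 221, 209, 149 and 162 CPM in scramble and at 240, 254, 263 and 273 CPM in the knockdown (0.51 ± 0.13, adjusted p 0.0254). Hist4h4, an H4 gene, was at 166, 169, 149 and 166 CPM in scramble and at 227, 199, 228 and 232 CPM in the knockdown (0.45 ± 0.10, adjusted p 0.0187). In both genes the groups did not overlap, and the spread in Hist1h1e came from scramble. The number called depended on single libraries: it was 17 without knockdown replicate 1, and 0 without knockdown replicate 3 or 4 or scramble replicate 3. It was 1 without scramble replicate 1, and 2 without scramble replicate 4 or knockdown replicate 2. With the GC trend removed it was 4. Histone genes are near-identical, and reads that align to several of them are missing from these counts.

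Genes of the actin cytoskeleton and adhesion rose in part. In an integrin, actin and YAP target list the test called 8 of 37 members higher (all genes: 4.16%) and 0 lower. The median was 0.17 (0.17 and 0.18 in the replicate sets), with 21 members higher and 3 lower in 4 of 4 pairs. Actb was at 3749, 4297, 4262 and 4491 CPM in scramble and at 5008, 5517, 6268 and 5629 CPM in the knockdown (0.41 ± 0.08, adjusted p 0.00919). Tagln2, an actin-binding calponin relative, was at 230, 249, 240 and 246 CPM in scramble and at 301, 305, 319 and 302 CPM in the knockdown (0.35 ± 0.07, adjusted p 0.00957). Neither gene's groups overlapped, and the Tagln2 libraries lay close together within each group. Cnn2, Flna, Lmna and Itgb3 changed by 0.51 ± 0.10, 0.35 ± 0.08, 0.30 ± 0.08 and 0.28 ± 0.06, and Ccn1 and Wwtr1 were also called. The number called was 1 without scramble replicate 3, 3 without knockdown replicate 3, 4 without scramble replicate 4 or knockdown replicate 2, and 5 without scramble replicate 1.

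**Figure D5:**
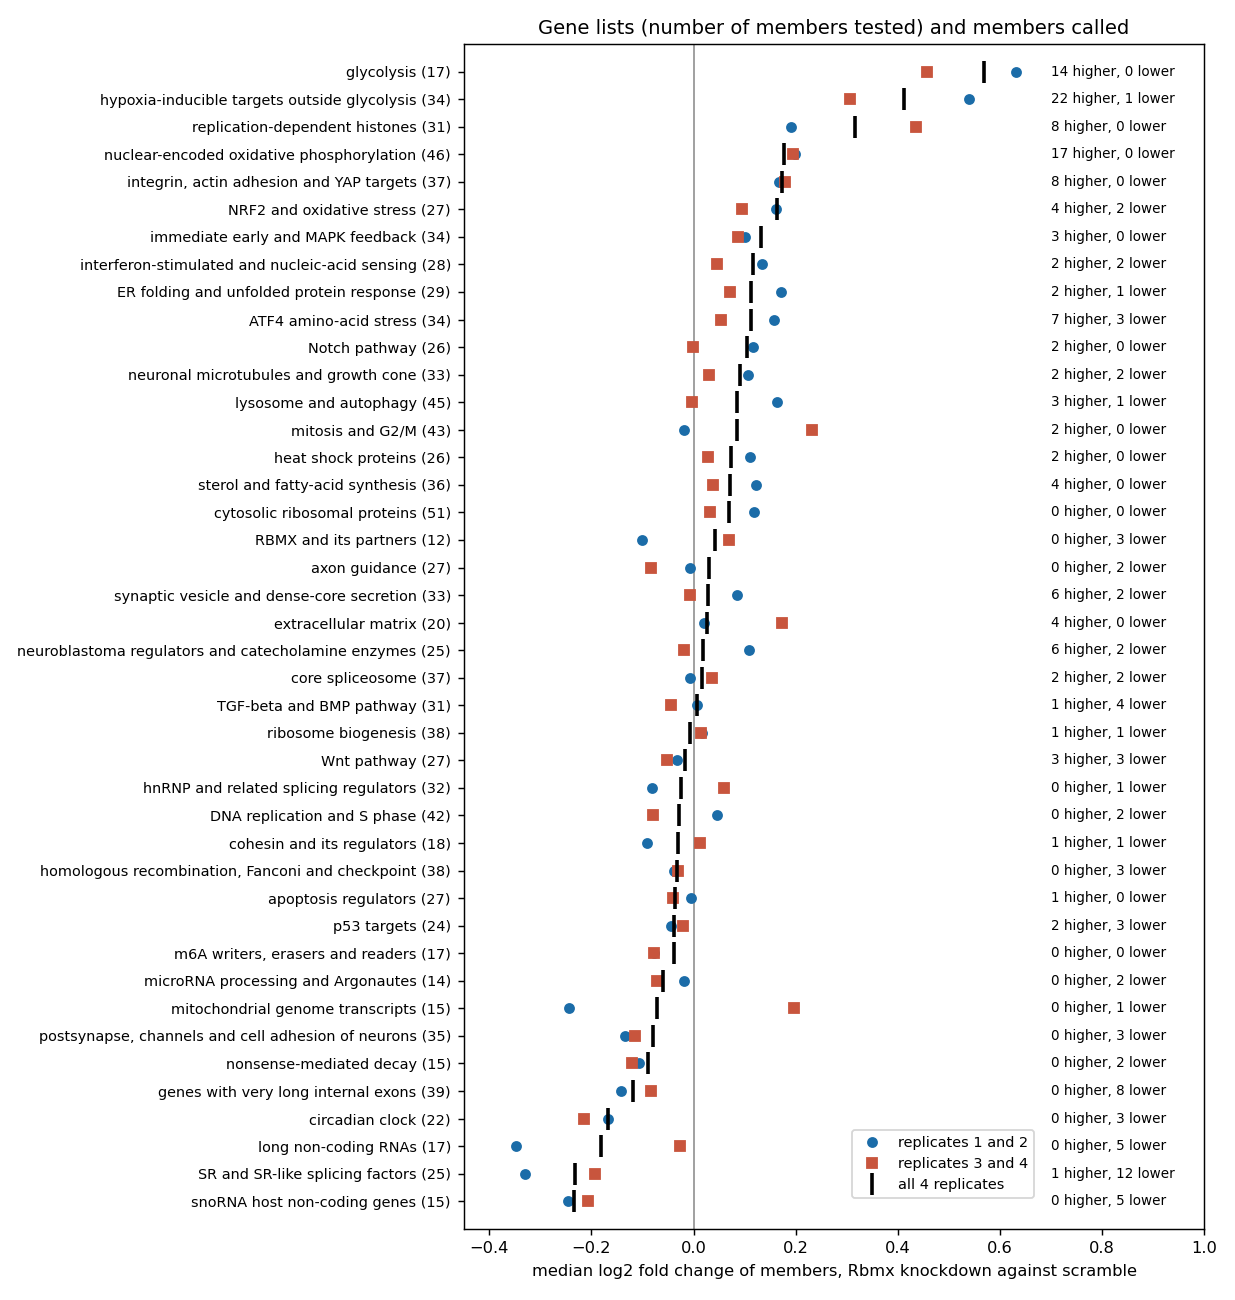
Median log2 fold change of each of the 42 gene lists within replicates 1 and 2 (circles), within replicates 3 and 4 (squares) and over all 4 replicates (ticks), with the number of members tested in parentheses and the members called at the right. Glycolysis and hypoxia-inducible targets lie at the top with medians of 0.57 and 0.41, and SR factors and snoRNA hosts at the bottom with −0.23 each.

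Regulators of neuroblastoma identity changed individually. The test called 6 of 25 members higher and 2 lower (all genes: 4.16% and 4.19%), with 13 positive and 12 negative fitted changes and a median of 0.02. Mycn, the driver oncogene of the tumour type, was at 10.5, 11.1, 11.4 and 12.6 CPM in scramble and at 15.4, 14.6, 22.6 and 15.9 CPM in the knockdown (0.56 ± 0.12, adjusted p 0.0126), without overlap. Lin28b, which blocks let-7 maturation, was at 56.0, 54.4, 68.9 and 60.4 CPM in scramble and at 36.9, 41.4, 50.2 and 47.9 CPM in the knockdown (−0.45 ± 0.07, adjusted p 0.00522). Its groups did not overlap, and it moved against Mycn. Ddc, the decarboxylase that makes dopamine, changed by 0.96 ± 0.25. Its mean level was low, 1.20 CPM in scramble and 2.29 CPM in the knockdown, and its groups overlapped. The neural crest factor Tfap2b changed by 0.61 ± 0.14 and the neurotrophin receptor Ngfr by 0.36 ± 0.07. Slc18a2, the vesicular monoamine transporter, changed by −0.33 ± 0.07. Insm1, a neuroendocrine factor from the marker set, was named after its values were seen and changed by 0.21 ± 0.06 (adjusted p 0.0325). Without scramble replicate 3 the list had 0 members called higher, and without any other single library 1 to 3.

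Neuronal lists had calls in both directions (all genes: 4.16% higher, 4.19% lower), and several of their counts are near those shares. Of 33 genes of synaptic vesicles and dense-core secretion, 6 were called higher and 2 lower, and of 35 genes of the postsynapse, channels and adhesion, 0 higher and 3 lower. Vgf, a secreted neuropeptide precursor, was at 608, 680, 901 and 878 CPM in scramble and at 797, 851, 1214 and 1148 CPM in the knockdown (0.38 ± 0.06, adjusted p 0.00357), higher in each pair. Cplx1, the complexin that clamps vesicle fusion, changed by 0.34 ± 0.06 and the SNARE gene Snap25 by −0.23 ± 0.07, or −0.14 with the GC trend removed. In the postsynaptic list the calcium channel Cacna1c changed by −0.28 ± 0.06. Among 33 genes of neuronal microtubules, Mapt, the tau gene, fell by 0.27 on the log2 scale and Stmn3, a stathmin, rose by 0.27. Axon guidance had 0 of 27 higher and 2 lower, Sema6a and Plxnb1. The difference between the lists was not tested. The synaptic list had 3 or 4 members called higher when any single library was left out. The postsynaptic list had 0 calls without scramble replicate 1 or 3 or knockdown replicate 2 or 3.

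Signalling lists gave scattered calls, several near the shares over all genes (4.16% higher, 4.19% lower). In the Notch list Lfng, which glycosylates Notch receptors, was at 5.33, 5.23, 6.76 and 5.30 CPM in scramble and at 8.67, 8.18, 13.3 and 9.38 CPM in the knockdown (0.79 ± 0.10, adjusted p 0.00216). Its groups did not overlap, and 2 of 26 members were called, both higher. In the Wnt list 3 of 27 were higher and 3 lower: the secreted antagonist Dkk1, the receptor Fzd2 and the coreceptor Lrp5 were higher at 0.59 ± 0.13, 0.69 ± 0.14 and 0.35 ± 0.07, and the receptors Fzd3 and Fzd6 and the receptor-clearing ligase Znrf3 were lower. In the TGF-beta and BMP list 1 of 31 was higher and 4 lower, with Id4, an inhibitor of helix-loop-helix factors, at −0.70 ± 0.14. Immediate early and MAPK feedback genes had 3 of 34 higher, among them Etv5 at 0.27 ± 0.06, and 0 lower. Circadian clock genes had 0 of 22 higher and 3 lower, Hlf at −0.49 ± 0.09, Clock at −0.34 ± 0.09 and Nr1d2 at −0.27 ± 0.05. The clock list's median was −0.17, with −0.17 and −0.21 in the replicate sets. Without scramble replicate 3 the Wnt list had 1 higher and 0 lower, and without knockdown replicate 3 it had 2 and 0. The TGF-beta and BMP list had 1 lower without scramble replicate 2, 3 or 4 or knockdown replicate 3 or 4.

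Stress pathways had calls in both directions, beside 4.16% of all genes called higher and 4.19% lower. Of 34 genes of the ATF4 amino-acid response, 7 were higher and 3 lower, with a median of 0.11: the serine enzyme Psat1 and the transsulfuration enzyme Cbs were higher at 0.26 ± 0.06 and 0.44 ± 0.09, while Slc38a2, an amino-acid transporter, was lower at −0.38 ± 0.08. Of 27 NRF2 and oxidative stress genes, 4 were higher and 2 lower, with the cystine transporter Slc7a11 at −0.37 ± 0.06 and the glutathione enzyme Gclc at −0.31 ± 0.06 as the falls. Of 29 genes of endoplasmic reticulum folding, 2 were higher, the secreted folding factors Manf and Creld2, and the sensor Ern1 was lower at −0.34 ± 0.07. Heat shock proteins had 2 of 26 higher, Hsph1 and Stip1, at 0.30 ± 0.07 and 0.22 ± 0.05. Interferon-stimulated genes and nucleic acid sensors had 2 of 28 higher and 2 lower. Apoptosis regulators had 1 of 27 higher, Endog at 0.47 ± 0.13. Ribosomal proteins of the cytosol had 0 of 51 called by edgeR, with a median of 0.07. Sterol and fatty-acid synthesis had 4 of 36 higher, extracellular matrix 4 of 20, and lysosome and autophagy 3 of 45 higher and 1 lower. Without scramble replicate 3 the ATF4 list had 1 higher and 1 lower, the oxidative stress list 0 and 2, and the sterol list 1 and 0. The ATF4 list had 2 or 3 higher without scramble replicate 1 or 4 or knockdown replicate 1, 2 or 3. The oxidative stress list had 0 or 1 higher without the same libraries. The matrix list had 0 higher without scramble replicate 1, 3 or 4 or knockdown replicate 2 or 3.

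Outside the lists, Kbtbd11 was among the largest rises of abundant protein-coding genes. Kbtbd11, a BTB and kelch domain protein, was at 12.5, 11.2, 3.64 and 3.65 CPM in scramble and at 20.5, 34.3, 13.3 and 6.81 CPM in the knockdown (1.29 ± 0.17, adjusted p 0.00241). Its replicate sets differed in scramble in the same way as those of Pdk1 and Bnip3. Plekha2, a phosphoinositide-binding protein, Sncb, beta-synuclein, the mitochondrial protein gene Mgarp and Cox4i2, the alternative isoform of a cytochrome oxidase subunit, changed by 0.88 ± 0.12, 0.80 ± 0.13, 1.02 ± 0.23 and 0.96 ± 0.25. Among protein-coding genes of at least 5 CPM, the largest falls beside Rbmx were Col11a2 at −1.10 ± 0.23, Gm35339 at −1.01 ± 0.22 and Apoe at −0.90 ± 0.25. Col11a2, a fibrillar collagen gene, was at 18.2, 10.1, 13.4 and 9.24 CPM in scramble and at 5.38, 4.69, 5.97 and 7.47 CPM in the knockdown, without overlap.

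The smallest p-values after Rbmx belonged to Crebrf and Tpbgl. Crebrf, a regulator of CREB3 factors and energy storage, was at 71.96, 66.6, 54.5 and 54.2 CPM in scramble and at 48.4, 40.3, 27.2 and 30.6 CPM in the knockdown (−0.78 ± 0.08, adjusted p 2.28e-04). Tpbgl, a trophoblast glycoprotein relative, was at 66.8, 63.2, 43.7 and 39.5 CPM in scramble and at 91.2, 103, 72.9 and 60.6 CPM in the knockdown (0.63 ± 0.06, adjusted p 2.28e-04). The groups of Crebrf did not overlap and those of Tpbgl did. Pccb, a subunit of propionyl-CoA carboxylase, was at 10.5, 10.7, 10.8 and 10.2 CPM in scramble and at 15.4, 17.02, 14.9 and 17.6 CPM in the knockdown (0.62 ± 0.09, adjusted p 0.00241). It was the gene nearest to the threshold without the block. Nab2, a corepressor of early growth response factors, changed by 0.65 ± 0.08, and Stox2 by −0.45 ± 0.06. Of the 1199 genes in any list that were tested, 207 were called, which leaves most of the 1467 called genes outside the lists.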

How the data were processed

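RNA-seq libraries of sorted Neuro-2a cells were analysed from raw counts per gene that the authors deposited, 1 file per library, without normalization. Per the submitters' processing notes, cutadapt, STAR 2.5.3a, HTSeq 0.6.1p1, R 3.3.2 and DESeq2 1.16.1 were used with the build mm10; the annotation and strand setting used for counting are not given in the sources used here. The 5 rows of each file that name no gene, 52.3% to 57.4% of its total, were left out. Names, positions and transcript lengths came from GENCODE M21 (GRCm38), which holds 55141 of the 55401 identifiers.

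Counts of all 12 libraries were fitted in edgeR 4.0.16 (R 4.3.3) after filterByExpr (minimum count 10, minimum total 15) with TMM scaling, a mean per group and the replicate number as a block, and tested by the quasi-likelihood F-test with Benjamini-Hochberg adjustment over 17569 genes. The fit was also run on counts simulated from this same model, which cannot test whether the replicate number is a true block. Standard errors were derived from the fold change and the F statistic. Pairing was checked on log2 CPM centred on group means: each of the 4 same-number pairs correlated across genes, at r = 0.338 to 0.416. Scramble and knockdown libraries of different numbers in 1 replicate set (1 and 2, or 3 and 4) correlated alike, at 0.305 to 0.386, and those of different sets at −0.41 to −0.291. Of 8 libraries, 6 correlated best with their own number.

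Named genes were Rbmx and Rbmxl1, the 12 largest rises and 12 largest falls among called protein-coding genes of at least 5 CPM with 4 of 4 pairs in the same direction, the 10 smallest p-values, up to 6 called members per list by p (the 2 most abundant where none was called), and the 3 most abundant called genes of each non-coding class. List members named beyond these were chosen after their values were seen, and 81 of the 208 genes the rule picks are not named in the report. The members and the 42 lists (1339 symbols) were chosen with earlier results of these data known. Alternatives were no block, only the 8 libraries, DESeq2 1.42.0, its size factors, other filters, removal of the GC trend, each replicate set, the replicate set as the block (added after seeing the data), and leaving out each library or number. Promoters came from RefSeq (GRCm38.p6).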

Additional observations from a re-analysis of the deposited data

Results flagged for a closer look

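In groups of 4 libraries, a library was listed where its gap to the nearest other one took up more of the group's range than the 95% critical value of Dixon's test allows. Of 338 such groups (169 genes named in the report, in both conditions), 12 met this. Chance gives about 1 in 20. In scramble, Flna was at 837 CPM in replicate 1, against 983 to 1005 CPM in the others, and Sdhc at 78.3 CPM in replicate 1, against 88.9 to 90.6 CPM. In scramble replicate 3, Srsf6 was at 302 CPM against 234 to 240 CPM and Lfng at 6.76 CPM against 5.23 to 5.33 CPM. Hist4h4 was at 149 CPM there, against 166 to 169 CPM. Srsf5 was at 130 CPM in scramble replicate 4, against 161 to 165 CPM. In knockdown replicate 2, Hk2, a hexokinase gene, was at 253 CPM against 202 to 208 CPM, Srsf5 at 111 CPM against 89.7 to 91.5 CPM, and Hist4h4 at 199 CPM against 227 to 232 CPM. In knockdown replicate 3, Mycn was at 22.6 CPM against 14.6 to 15.9 CPM, Pttg1 at 18.3 CPM against 13.5 to 13.98 CPM, and Upf3b at 9.86 CPM against 8.44 to 8.65 CPM. For Flna, knockdown replicate 1 was at 981 CPM, above its scramble partner but under the other scramble libraries, so that pair's direction rests on the flagged library. Apart from Flna, none of these gaps changes the direction of a pair for the gene it belongs to.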

How the results depend on the processing

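Rbmx kept its direction and its call in each of the 22 alternatives run, from −1.36 to −1.24 on the log2 scale apart from −1.41 in replicates 1 and 2 alone and −1.20 in replicates 3 and 4 alone. The count of 1467 genes was 1 without the replicate block, 4 in replicates 1 and 2 alone, 216 at an adjusted p under 0.01 and 2525 under 0.10. Leaving out a library or a replicate number gave 135 to 1077. The other counts, from 1309 with the replicate set as the block to 2190 with only 8 libraries, were within 1.5 times. The difference between replicate sets was called in 0 genes, in 315 with only 8 libraries and in 12 with DESeq2's size factors; the cause was not tested. Of the named genes, Alkbh5 and Rpl4, neither called, changed sign in replicates 3 and 4 alone, to −0.0138 and −0.0092. Of 211 named genes other than Rbmx, 205 lost their call without the block and as many in replicates 1 and 2 alone, 32 with the GC trend removed and 30 with the replicate set as the block. Leaving out 1 library lost the call of 45 to 142 of them, most without scramble replicate 3, and leaving out a replicate number 53 to 161. Fold changes near the spread between pairs cannot be told from 0 with 4 pairs.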
